A study of Saccharomyces cerevisiae with 12 samples.

Results

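Late stationary phase was compared with early stationary phase in the budding yeast Saccharomyces cerevisiae, using the 3 arrays labelled day 10 and the 3 arrays labelled day 2 out of 12 in the series. Both groups were batch cultures of strain CENPK 113-7D, a haploid laboratory strain, in synthetic medium (SD) with 2% glucose, and no deletion, added gene or drug was named for either. The genes compared were those whose S. cerevisiae probe set had 1 annotated gene, which gave 5498 of the 10928 probe sets and 5449 genes. The other 6 arrays, 3 of log phase cells and 3 of day 6, entered the estimate of spread, and their levels are given for reference. The labels count the days in stationary phase and the description of the series counts days of cultivation, so the true age is not settled here. Whether the 3 arrays of a group stand for different cultures is not stated in the labels, so p-values here reflect the spread between arrays, which may be technical.

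When glucose runs out, budding yeast first respires the ethanol it has made and then stops dividing. Cells entering stationary phase fill stores of glycogen and trehalose, thicken the wall and switch off the making of ribosomes. Messenger RNA becomes scarce in such cells, and an array scaled to equal overall brightness shows only the composition of what remains.

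Levels are on the log2 scale as deposited, a difference is day 10 minus day 2, and ± beside a difference is its standard error from limma, with 3 arrays per group. A gene was called at a limma adjusted p under 0.05 (Benjamini-Hochberg over 5449 genes). Of all genes, 3654 were called, which is 67.1%. Higher at day 10 were 1903 genes (34.9%), and lower were 1751 (32.1%). Differences of at least 1 unit, a doubling or more, were fewer, with 204 genes higher (3.74%) and 226 lower (4.15%). The arrays of the groups did not overlap for 3731 genes (68.5%). With so many calls, a call alone sets no gene apart, and the median SE of a difference was 0.0717. Genes were named by rank among the called, by size within their list, or, after their values were seen, because few members of a list rose, fell or failed the test.

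Arrays correlated at 0.981 to 0.993 across genes within day 2, at 0.990 to 0.997 within day 10, and at 0.868 to 0.915 between the days. Between 5215 and 5259 genes per array lay above the background level set by probe sets of another yeast species, of which 2 of 1746 were called. Technical measures also moved with the groups. The spiked hybridisation controls were brighter at day 10, and centring on them instead of keeping the deposited scaling lowers every difference by 0.548 (0.595 without the bioB control). Rises smaller than that change sign, and the calls then split into 271 higher and 3685 lower (240 and 3836 without bioB). Whether the hybridisation controls follow messenger RNA per cell was not tested. The signal of 3' over 5' probe sets of 8 control genes, a measure of RNA integrity, was 0.856 ± 0.239 (SD, n = 3) at day 2 and 1.28 ± 0.0652 at day 10 on the log2 scale. Its day 2 arrays read 1.13, 0.752 and 0.686, all below the day 10 arrays at 1.36, 1.23 and 1.26. With this measure in the model, called the integrity model here, 2425 genes were called (1297 higher, 1128 lower). The SD of the measure was 0.239 at day 2 and 0.0525 to 0.0706 in the other groups. The slope fitted to it thus rests mainly on the 3 day 2 arrays, and the day 10 arrays lie outside their range. The part of the measure in any single result was not tested. Where a printed list count of 5 or more differed by over 1.5 times in that model, its value there is given beside it. In a bulk culture, fewer cells with a transcript and less of it per cell cannot be told apart.

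**Figure D1:**
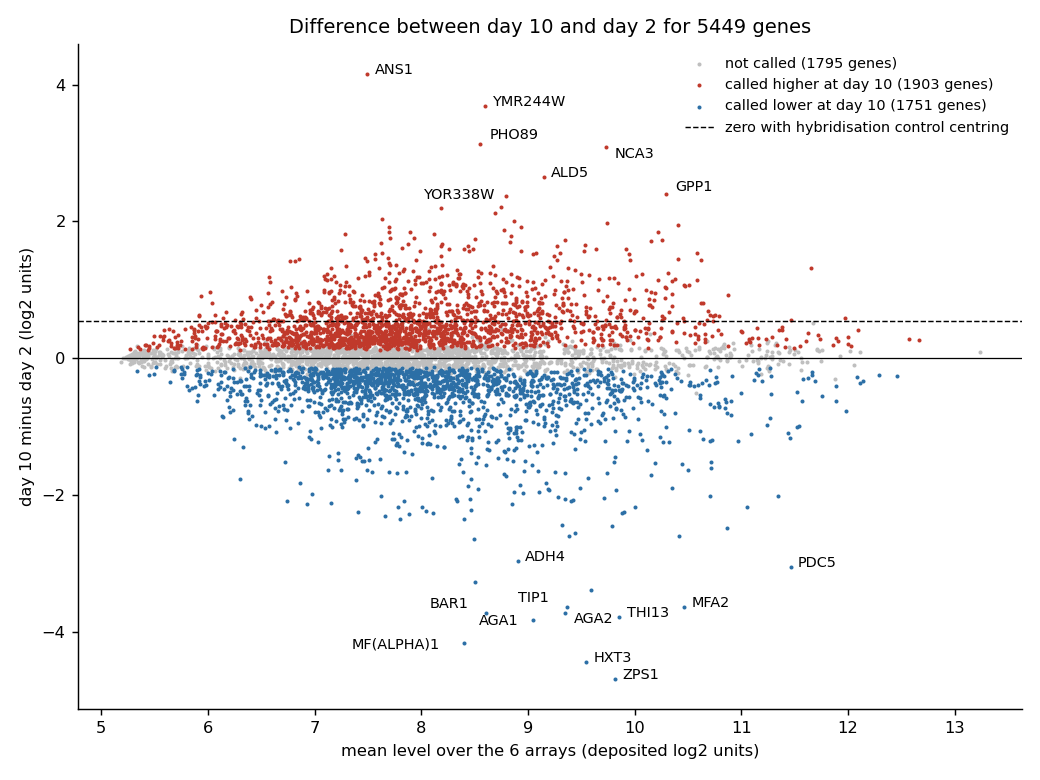
Difference between day 10 and day 2 (y axis, log2 units) against the mean level over the 6 arrays (x axis, deposited log2 units) for 5449 genes. Red points are the 1903 genes called higher, blue points the 1751 called lower and grey points those not called. Points between 0 and the dashed line at 0.548 change sign with centring on the hybridisation controls. ANS1 has the highest measured difference, 4.15, from a day 2 level not above background, and ZPS1 the lowest, -4.69.

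Transcripts of the mating machinery of a-type cells fell steeply between day 2 and day 10. A yeast cell of mating type a secretes a-factor (MFA1, MFA2), senses the partner's alpha-factor through the receptor Ste2 and exports its own pheromone through Ste6. All 7 MATa-specific genes measured fell, against 32.1% of all genes, with a median of -3.39, where the median of all genes was 0.0232. The STE2 probe set read 11.22, 11.34 and 11.29 on the day 2 arrays and 7.75, 8.17 and 7.75 on the day 10 arrays. The groups did not overlap, and STE2 fell by 3.39 ± 0.09, or 10.5-fold (adjusted p = 1.98e-11). MFA2 went from 12.38, 12.31 and 12.15 to 8.42, 9.26 and 8.25 and fell by 3.64 ± 0.19 (adjusted p = 4.8e-09). Replicate 2 was the highest of the day 10 arrays for both genes. BAR1, the protease that destroys alpha-factor, fell by 3.73 ± 0.10 and AGA2, the binding subunit of the a-agglutinin, by 3.64 ± 0.12. MFA1 (-2.48), ASG7 (-2.32) and the transporter gene STE6 (-2.14) fell less. STE2 and MFA2 had intermediate levels in log phase, with means of 9.74 and 9.94, and at day 6 STE2 was already at 7.95. MFA1 and ASG7 had log phase means of 9.64 and 6.58, near their day 10 means of 9.63 and 6.51.

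Most genes of the pheromone response and of mating fell too. Of 29 such genes, 22 fell and 3 rose, with a median of -0.49 and 14 members down by at least 1 unit. In the integrity model 18 fell and 4 rose, with a median of -0.97. AGA1, the anchor of the agglutinin, read 11.22, 10.91 and 10.78 at day 2 and 7.06, 7.28 and 7.07 at day 10. Its log phase mean was 7.16, near its day 10 mean of 7.14. AGA1 fell by 3.83 ± 0.11 (limma adjusted p = 3.06e-11), with no overlap. KAR4, a transcription factor for nuclear fusion, fell by 2.36 ± 0.10, FAR1, which arrests the cycle on pheromone, by 2.35 ± 0.13, the fusion gene FUS1 by 2.06 ± 0.10 and SST2, which damps the signal, by 2.02 ± 0.07. FIG1, needed for mating projections to fuse, was not above background at day 10, so its level at day 2 was at least 2.6-fold higher (measured means 7.18 and 5.41). The rises were MSG5 (0.90), a phosphatase, STE11 (0.38), a MAP kinase kinase kinase, and PRM5 (0.25), the last pair changing sign with control centring. The Ty3 retrotransposon gene YGR109W-A, whose probe set can bind several copies, fell by 3.28 ± 0.11.

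The MATalpha-specific genes did not move as a set. MF(ALPHA)1, a gene for alpha-factor, read 10.28, 10.65 and 10.51 at day 2, 6.16, 6.69 and 6.09 at day 10 and a mean of 6.01 in log phase. Its day 2 arrays lay far above all others, and the fall was 4.17 ± 0.13 (adjusted p = 7.61e-11). SAG1, the alpha-agglutinin, fell by 0.95 ± 0.09 from a mean of 8.10. STE3, the a-factor receptor, had means of 7.22 and 7.33 (difference 0.10, adjusted p = 0.165), and MF(ALPHA)2 lay at background on day 2 (5.80) and near it on day 10 (5.94).

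**Figure D2:**
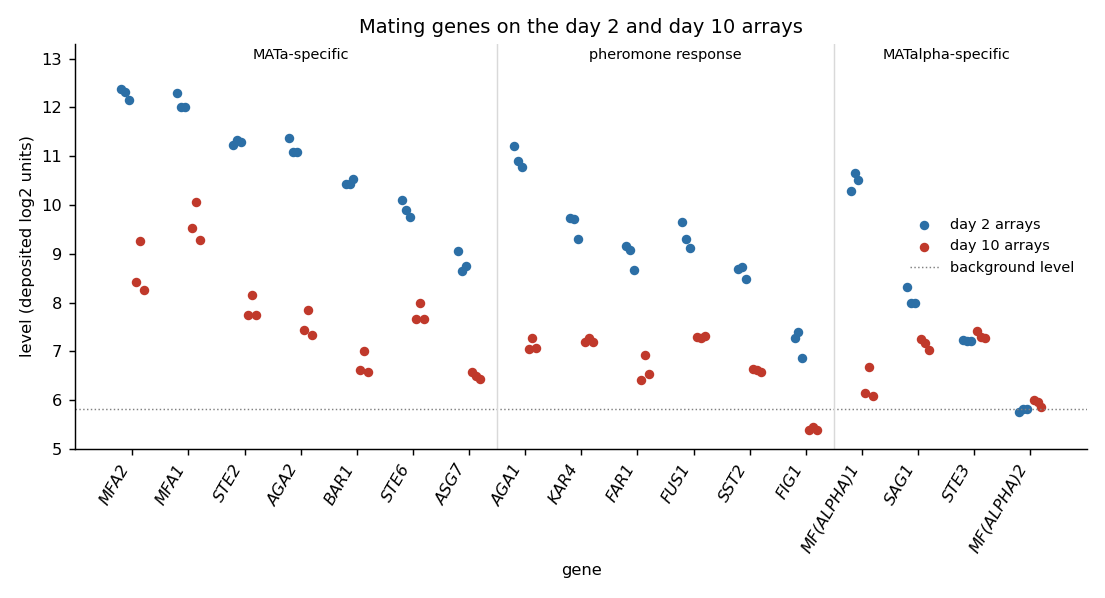
Levels of 17 mating genes (y axis, deposited log2 units) on each day 2 array (blue) and each day 10 array (red), with the background level dotted. The blue and red points are apart for every MATa-specific and pheromone response gene shown, and close together for STE3 and MF(ALPHA)2.

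The hexose transporters HXT1, HXT3 and HXT4, used when glucose is present, had the lowest differences of their family. Of 15 hexose transporter genes, 5 were called lower (33.3%) and 3 higher (20%), and the median was 0.03. Among all genes 32.1% were lower and 34.9% higher, so the share of lower members was near that of all genes. HXT3, a low-affinity carrier, read 11.84, 11.68 and 11.78 at day 2 and 7.28, 7.14 and 7.56 at day 10. No arrays overlapped, and HXT3 fell by 4.44 ± 0.09, or 21.7-fold (limma adjusted p = 1.93e-12). Its log phase mean was 10.53. HXT4 went from 10.88, 10.59 and 10.58 to 8.31, 7.49 and 8.46, a fall of 2.60 ± 0.19, and stood lower still at day 6, at a mean of 6.79. HXT1 fell by 2.13 ± 0.10 to a mean of 5.86, close to background. The probe set named HXT7, which also matches HXT6, fell by 0.88 ± 0.14. The one named HXT17, shared with close copies, ended below background, so its day 2 level was at least 1.21-fold higher (measured means 6.08 and 5.74). HXT5, the carrier of starved cells, rose by 0.79 ± 0.15 to a mean of 9.85, under its day 6 mean of 11.42, and its call was lost with control centring. HXT2 rose (0.54), but changed sign with control centring. Its groups overlapped, at 10.10, 10.52 and 10.77 against 11.24, 10.48 and 11.29, and the call was lost without day 2 replicate 1 (0.36), day 10 replicate 1 (0.42) or day 10 replicate 3 (0.40). HXT9 (0.03) and HXT11 (0.17) were not called. The other 6, GAL2, HXT8, HXT10, HXT13, HXT14 and the shared probe set named HXT15, lay below background on both days, so the call of HXT10 as higher, at means of 5.54 and 5.76, gives no size and was lost in the integrity model.

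Among 27 glucose sensing and repression genes 13 fell, 4 rose and 10 were not called (median -0.13). The falls were led by MIG2, a repressor made on glucose, by 2.26 ± 0.12, and by MTH1 and STD1, regulators of hexose transporter genes, by 1.82 ± 0.12 and 1.49 ± 0.05. NRG2 fell by 1.26 ± 0.12 and SNF4, the activating subunit of the Snf1 kinase, by 0.997 ± 0.11. The 4 that rose, NRG1 (0.54), GPA2 (0.49), SIP4 (0.25) and RGT2 (0.19), changed sign with control centring, and the last pair also lost the call in the integrity model.

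Most glycolytic genes fell, and fermentation genes moved in both directions. None of 16 glycolytic genes rose and 13 fell (median -0.35), a count that came to 5 in the integrity model (median -0.09). The hexokinase HXK1 fell by 1.60 ± 0.19 and the glucokinase GLK1 by 1.23 ± 0.14. TDH1, a glyceraldehyde phosphate dehydrogenase, did not pass the test (-0.10, adjusted p = 0.272). PDC5, a pyruvate decarboxylase isoform, read 12.94, 12.99 and 13.03 at day 2 and 9.58, 10.37 and 9.86 at day 10. It fell by 3.05 ± 0.14 (limma adjusted p = 1.54e-09), without overlap, and its log phase mean was 9.16. ADH4, an alcohol dehydrogenase that responds to zinc, fell by 2.97 ± 0.34, but its day 2 arrays spread from 9.62 to 10.96 and the fall was 1.70 in the integrity model. ALD5, a mitochondrial aldehyde dehydrogenase, went the other way, from 7.87, 7.81 and 7.81 to 10.51, 10.32 and 10.58. ALD5 rose by 2.64 ± 0.07, or 6.24-fold (adjusted p = 1.6e-11), and its log phase and day 6 means were 8.12 and 8.27, so only the day 10 arrays were high. ADH1, the main fermentative alcohol dehydrogenase, rose by 1.32 ± 0.08 to a mean of 12.31, and ADH2, which oxidises ethanol, by 0.89 ± 0.15, the latter without a call under control centring. ALD3 and ALD4 fell by 1.31 ± 0.14 and 1.19 ± 0.14. In all, 10 of 16 fermentation and acetate genes fell and 3 rose.

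Most genes of the reserve carbohydrates fell. Of 16 glycogen genes 13 fell and 2 rose (median -0.69), and of 8 trehalose genes 5 fell and 3 rose (median -0.81). The median level of the glycogen genes was 6.73 in log phase, 8.85 at day 2 and 7.82 at day 10. For the trehalose genes it was 7.06, 9.16 and 8.35. GPH1, glycogen phosphorylase, read 11.27, 10.90 and 10.89 at day 2 and 8.29, 9.04 and 8.34 at day 10. It fell by 2.46 ± 0.27 (adjusted p = 3.66e-06), and replicate 2 was again the highest of the day 10 arrays. UGP1, which makes the glucose donor of both polymers, went from 10.58, 10.71 and 10.85 to 8.02, 8.38 and 8.08 and fell by 2.55 ± 0.10. PGM2, a phosphoglucomutase, fell by 2.45 ± 0.13, the glycogen synthase gene GSY1 by 2.18 ± 0.10, the debranching enzyme GDB1 by 1.66 ± 0.11 and the branching enzyme GLC3 by 1.63 ± 0.16. All 4 subunits of the trehalose synthase complex fell, TPS1 by 1.44 ± 0.12, TSL1 by 1.28 ± 0.13, TPS2 by 1.20 ± 0.10 and TPS3 by 1.07 ± 0.08, as did the vacuolar trehalase ATH1 by 0.56 ± 0.06. The rises were the sugar transporter MAL11 (0.56), the neutral trehalases NTH1 (0.44) and NTH2 (0.17), and on the glycogen side PIG1 (0.24) and GLG2 (0.22). All 5 changed sign with control centring, MAL11 only when bioB was left out, and MAL11, NTH1 and GLG2 lost the call in the integrity model. The pentose phosphate pathway, which makes reducing power, had 9 of 13 genes lower (6 in the integrity model), led by SOL4 (-2.07) and TKL2 (-1.65).

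Glycerol genes moved in both directions. The phosphatases that release glycerol rose, GPP1 by 2.40 ± 0.14 and GPP2 by 1.66 ± 0.12. GPP1 read 8.83, 9.14 and 9.32 at day 2 and 11.59, 11.20 and 11.69 at day 10, apart from day 2 and near its log phase mean of 11.08 (adjusted p = 1.19e-08). GPD1, the dehydrogenase before them, fell by 1.24 ± 0.13 and GCY1 by 1.27 ± 0.11, while GPD2 (0.59) and the channel FPS1 (0.58) rose, neither with a call under control centring, and STL1 (0.24) was not called.

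Most stationary phase and hydrophilin genes were lower at day 10, while most heat shock and chaperone genes were higher. Of 48 stationary phase and hydrophilin genes, 34 fell, 17 of them by at least 1 unit, and 6 rose (median -0.70). In the integrity model 23 fell. The median level of the list was 6.83 in log phase, 9.64 at day 2 and 8.61 at day 10, so it stayed above log phase. RTN2, a reticulon of the endoplasmic reticulum, fell by 2.64 ± 0.15, the mitochondrial gene FMP48 by 2.29 ± 0.12 and LSP1, an eisosome subunit, by 2.27 ± 0.14. RGI1, a gene of respiratory growth, fell by 2.60 ± 0.15. CTT1, the cytosolic catalase, read 8.79, 9.02 and 9.69 at day 2 and 6.91, 7.08 and 6.79 at day 10, a fall of 2.24 ± 0.20 that was 1.64 in the integrity model. Among 39 antioxidant genes 22 fell and 7 rose (median -0.27), and 16 fell in the integrity model. AHP1, a thiol peroxidase, fell by 2.18 ± 0.11 from 12.24, 12.002 and 12.18 to 10.03, 9.93 and 9.91. The superoxide dismutase SOD1 fell by 1.01 ± 0.07.

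Of 42 heat shock and chaperone genes, 29 rose and 3 fell, with a median of 0.51 that became -0.04 with control centring (14 higher, 11 lower). BTN2, which sorts misfolded proteins, read 8.94, 8.52 and 8.81 at day 2 and 10.64, 10.86 and 10.68 at day 10. It rose by 1.97 ± 0.16 (adjusted p = 2.41e-07), with a day 6 mean of 10.78. YDJ1, an Hsp40 co-chaperone, went from 9.45, 9.20 and 9.25 to 10.94, 11.10 and 11.01 and rose by 1.72 ± 0.08. CNS1 (1.75) and CPR6 (1.32), partners of Hsp90, rose, as did SSA3 (1.43), an Hsp70, and HSP30 (1.60), a plasma membrane protein. The last pair had day 6 means of 11.46 and 11.74, higher than their day 10 means of 9.99 and 10.72. The falls were HSP31 (-1.03), SBA1 (-0.69) and MGE1 (-0.23), the last without a call in the integrity model. In the endoplasmic reticulum 7 of 20 folding genes rose and 9 fell (3 in the integrity model). Those shares were 35% and 45%, against 34.9% and 32.1% of all genes. ERO1, the oxidase that drives disulfide formation, rose by 1.70 ± 0.07, and CPR5, a prolyl isomerase, fell by 1.02 ± 0.07.

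Most thiamine and zinc-responsive genes fell, the phosphate regulon was split and most sulfate assimilation and methionine genes rose on the deposited scaling. Of 17 thiamine genes 13 fell (median -0.69). The probe set named THI13, which cannot separate THI5, THI11, THI12 and THI13, read 11.70, 11.68 and 11.87 at day 2 and 7.90, 8.04 and 7.94 at day 10. It fell by 3.78 ± 0.07 (adjusted p = 9.73e-13), against a log phase mean of 6.61. PET18 fell by 2.04 ± 0.07, THI22 by 1.77 ± 0.10 and the enzyme genes THI6 and THI20 by 1.21 ± 0.06 and 1.06 ± 0.07. The activators THI2 (0.43) and PDC2 (0.32) rose but changed sign with control centring. Zinc-responsive genes are induced by the factor Zap1 when zinc is short, and 14 of 20 fell (median -0.83), a count of 7 and a median of -0.19 in the integrity model. ZPS1, a surface protein, read 11.76, 12.23 and 12.48 at day 2 and 7.27, 7.84 and 7.31 at day 10. ZPS1 fell by 4.69 ± 0.24, or 25.8-fold (adjusted p = 4.8e-09), by 3.92 in the integrity model, and was still at a mean of 10.71 on day 6. FET4, a low-affinity metal transporter, fell by 1.55 ± 0.14 and IZH2 by 1.17 ± 0.11, while DPP1 fell by 1.24 ± 0.21 without keeping its call in that model (-0.31). The rises were PST1 (1.73), a wall protein, and ZRC1 (0.47), which stores zinc in the vacuole and changed sign with control centring. ZRT1, the high-affinity zinc transporter, was not called (-0.23, adjusted p = 0.0686).

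PHO89, a sodium-coupled phosphate transporter, read 6.75, 6.92 and 7.30 at day 2 and 10.14, 10.25 and 9.96 at day 10. It rose by 3.13 ± 0.15, or 8.74-fold (adjusted p = 2.66e-09), without overlap, and was at 9.39 on day 6. PHO84, the high-affinity phosphate transporter, rose by 1.14 ± 0.15 to a mean of 11.16, and PHO90, a low-affinity one, by 1.10 ± 0.14. The phosphate regulon had 11 of 30 genes higher and 10 lower (3 lower in the integrity model). Its shares of 36.7% and 33.3% were near the 34.9% and 32.1% of all genes. Sulfate assimilation and methionine genes had 26 of 39 higher and 4 lower, with a median of 0.69. With control centring the median was 0.14, and 10 were higher and 10 lower. STR3, a cystathionine beta-lyase, read 7.16, 7.76 and 8.01 at day 2 and 9.81, 9.99 and 9.76 at day 10, a rise of 2.21 ± 0.19 (adjusted p = 4.04e-07). HOM3, aspartate kinase, went from 7.57, 7.71 and 7.61 to 9.65, 9.76 and 9.84 and rose by 2.12 ± 0.06. SUL1, the sulfate permease, rose by 1.79 ± 0.29 from day 2 arrays as far apart as 7.03, 8.19 and 8.62, and by 2.98 in the integrity model. MMP1 (1.85) and MUP3 (1.67), transporters of sulfur amino acids, and MET16 (1.67) rose, and SAM3 (-1.002), HOM6 (-0.80), MET3 (-0.66) and SAM2 (-0.55) fell, SAM3 without a call in the integrity model and the last pair with a changed sign in the integrity model (0.52 and 0.15). MCH5, the riboflavin transporter, rose by 2.20 ± 0.09. Of 6 vitamin B6 genes BUD17 (0.72) rose, losing its call with control centring, and BUD16 (-0.46), PDX3 (-0.31), SNO1 (-0.29) and TPN1 (-0.24) fell, PDX3 and SNO1 without a call in the integrity model.

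Nitrogen catabolite genes, which yeast uses on poor nitrogen sources, had 21 of 40 higher and 11 lower (7 lower in the integrity model), with a median of 0.23 that turned to -0.32 with control centring. The arginase CAR1 rose by 1.73 ± 0.17, and the amino acid permeases BAP2 and AGP1 by 1.57 ± 0.06 and 1.24 ± 0.09, while the permease DIP5 fell by 1.15 ± 0.14. Iron genes were even, with 11 of 34 higher and 11 lower. Each share was 32.4%, near the 34.9% higher and 32.1% lower of all genes. CTH1 (0.99) and TIS11 (0.96), which destabilise messages when iron is short, rose, and the reductase FRE1 fell by 0.91 ± 0.11. None of the 15 copper genes moved by 1 unit, and their median was -0.09.

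**Figure D3:**
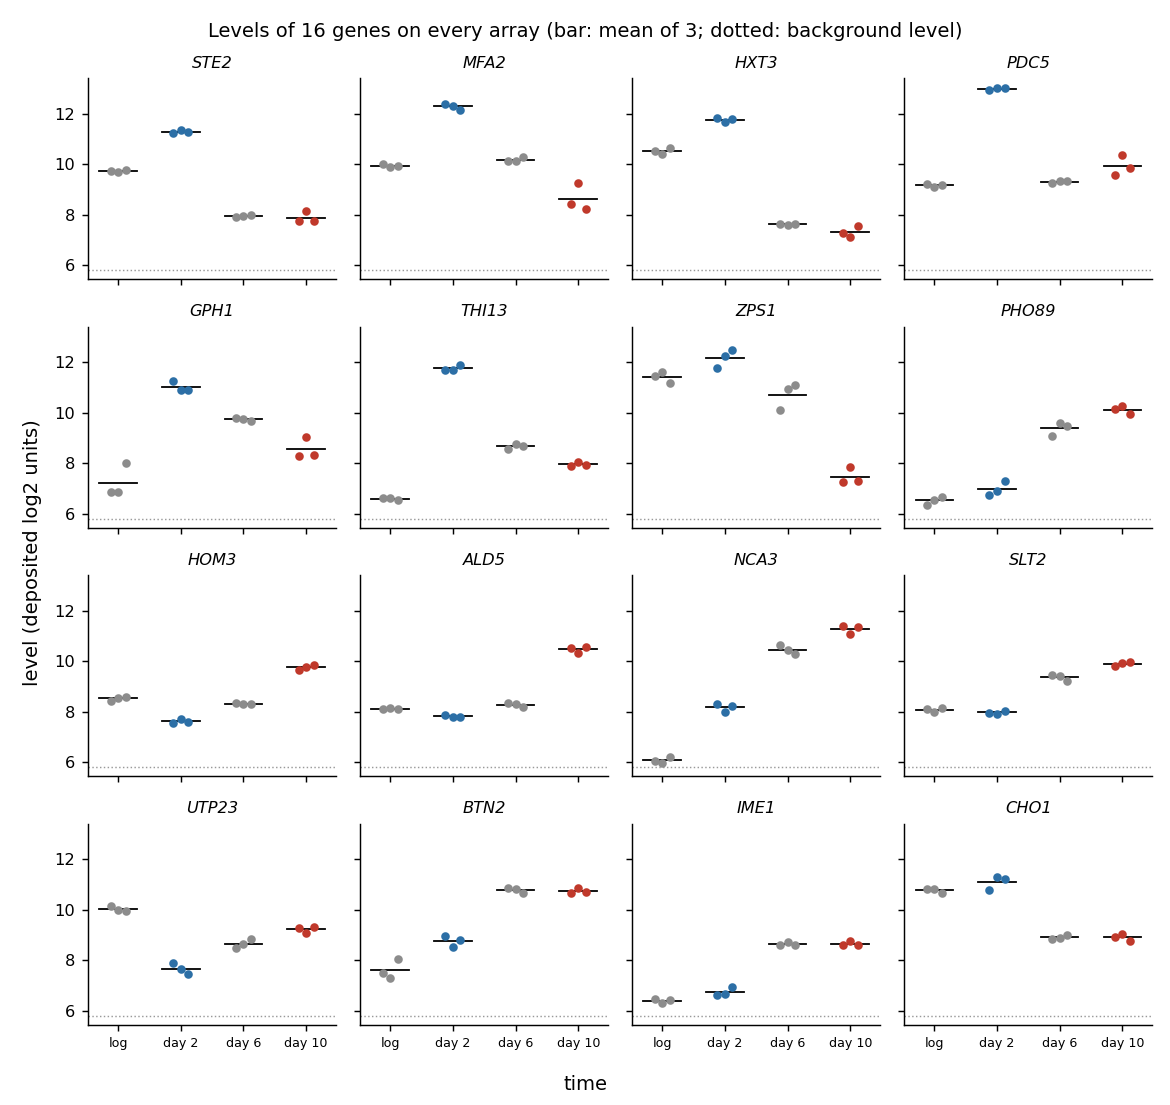
Levels of 16 genes named in the text (y axis, deposited log2 units) on each array of log phase, day 2 (blue), day 6 and day 10 (red), with bars at the mean of 3 arrays and the background level dotted. The HXT3 arrays drop from a mean of 11.77 at day 2 to 7.62 at day 6, while ALD5 is at 8.27 on day 6 and 10.47 on day 10.

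Most genes for ribosome biogenesis factors were higher at day 10, while most genes of the ribosomal proteins themselves were not called. Of 124 ribosome biogenesis factors 117 rose, against 34.9% of all genes, and none fell, with a median of 0.81 and 41 up by at least 1 unit. With control centring the median was 0.27 and 56 rose while 6 fell, and in the integrity model it was 0.49 with 82 higher. UTP23, a processome component, read 7.88, 7.66 and 7.45 at day 2 and 9.30, 9.07 and 9.32 at day 10. It rose by 1.57 ± 0.11 (adjusted p = 9.97e-08), to below its log phase mean of 10.03. NSR1, a nucleolar protein, went from 9.59, 9.13 and 8.85 to 10.83, 10.50 and 10.79, a rise of 1.52 ± 0.15 that was 0.91 in the integrity model, and its log phase mean was 10.54. RRP14 (1.54), CGR1 (1.49), UTP18 (1.47) and the helicase DBP8 (1.46) rose alike. Among the day 2 arrays these genes were highest in replicate 1, which had the strongest 3' bias of that day (1.13). The day 10 arrays, with more bias still (1.36, 1.23 and 1.26), lay above it in each of the 6 genes. The part of this bias in the rises was not tested.

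Of 40 genes for RNA polymerases I and III and their factors 25 rose (16 in the integrity model) and 4 fell, with a median of 0.44 that turned to -0.11 with control centring. RPA12 (1.45) and RRN11 (1.42) led, and MAF1 (-0.77), the repressor of polymerase III, fell with TFC8 (-0.28), TFC3 (-0.22) and RRN5 (-0.19). The 127 cytosolic ribosomal protein genes had a median of 0.03, with 30 higher (23.6%) and 18 lower (14.2%), shares below the 34.9% and 32.1% of all genes, and 3 and 34 in the integrity model. Without day 2 replicate 1 there were 52 higher, and without day 2 replicate 3 31 lower. RPL22B, a minor paralogue, rose by 1.28 ± 0.18 (0.58 in the integrity model), while RPS8B fell by 0.67 ± 0.11. Of 69 mitochondrial ribosomal proteins 28 rose (40.6%, against 34.9% of all genes) and 4 fell (5.8%, against 32.1%). Their median of 0.14 turned to -0.41 with control centring. Of 35 translation factors 18 rose (7 in the integrity model), with a median of 0.20 that turned to -0.35 with control centring. Of 21 tRNA synthetases 10 rose (3 in the integrity model, median 0.05), and their median of 0.24 turned to -0.31.

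Most genes of the amino acid and nucleotide synthesis lists described here were higher on the deposited scaling. Branched chain synthesis had 11 of 13 genes higher (median 0.85, 0.30 with control centring). ILV3, a dehydratase of the pathway, read 8.89, 8.43 and 8.27 at day 2 and 10.05, 10.15 and 10.00 at day 10, a rise of 1.54 ± 0.12 (adjusted p = 2.08e-07). LEU9 (1.17), LEU1 (1.06), BAT1 (1.05), ILV2 (1.001) and the mitochondrial carrier OAC1 (1.17) rose, and BAT2, the cytosolic transaminase, fell by 0.59 ± 0.06. HIS1, the first enzyme of histidine synthesis, rose by 1.60 ± 0.08 and ARO3, of the aromatic pathway, by 1.25 ± 0.08, in a list where 17 of 20 rose (median 0.49, -0.05 with control centring). ASN1, asparagine synthetase, rose by 1.84 ± 0.09 and LYS4 by 1.28 ± 0.09, while ALT1, an alanine transaminase, fell by 1.07 ± 0.10. Arginine genes had 7 of 8 higher, with ARG4 lower by 0.65 without a call in the integrity model. Without day 2 replicate 1 or day 10 replicate 1 the arginine count was 4. Without day 2 replicate 2 or day 10 replicate 3 it was 5. Lysine genes had 7 of 9 higher (4 in the integrity model), with LYS5 lower by 0.91. The arginine and lysine medians of 0.41 and 0.45 turned to -0.14 and -0.10 with control centring. Purine genes had 15 of 21 higher (9 in the integrity model), led by IMD4 (1.18), FCY2 (1.16) and MTD1 (1.15), and pyrimidine genes 10 of 17, led by FUI1 (1.37). Their medians of 0.37 and 0.48 turned to -0.18 and -0.07 with control centring. URA10, a minor isozyme of pyrimidine synthesis, fell by 2.23 ± 0.10 from 9.34, 9.79 and 9.62 to 7.36, 7.40 and 7.30.

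Most genes of membrane lipid synthesis fell. Of 29 fatty acid and phospholipid genes 24 fell (median -0.56), and EKI1 (0.43) and HFA1 (0.37) rose but changed sign with control centring, HFA1 also without a call in the integrity model. CHO1, phosphatidylserine synthase, read 10.77, 11.28 and 11.22 at day 2 and 8.91, 9.04 and 8.78 at day 10, a fall of 2.18 ± 0.11 (adjusted p = 5.71e-09). PSD1, the decarboxylase that follows it, went from 8.92, 9.28 and 9.54 to 6.99, 6.93 and 7.00 and fell by 2.27 ± 0.11. OPI3, a methyltransferase of phosphatidylcholine synthesis, fell by 2.02 ± 0.12, the inositol transporter ITR1 by 1.22 ± 0.10 and ACC1, the carboxylase that starts fatty acid synthesis, by 1.17 ± 0.07. Of 30 ergosterol genes 20 fell and 8 rose (5 in the integrity model), with a median of -0.54. ERG28 fell by 1.56 ± 0.07, ERG20 by 1.38 ± 0.09 and ERG5 by 1.36 ± 0.13. The acyltransferases that store sterol parted, ARE2 falling by 1.33 while ARE1 rose by 1.16 ± 0.07.

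Mitochondrial and peroxisomal genes were mixed. Gluconeogenesis and glyoxylate genes had 7 of 22 higher (4 in the integrity model) and 8 lower. Their shares of 31.8% and 36.4% were near the 34.9% and 32.1% of all genes. MAE1, the mitochondrial malic enzyme, read 7.97, 7.82 and 7.82 at day 2 and 9.88, 9.78 and 9.94 at day 10, a rise of 2.00 ± 0.09 (adjusted p = 1.59e-09). PCK1, which commits carbon to glucose synthesis, rose by 1.54 ± 0.21, and MPC3, a pyruvate carrier subunit, fell by 1.93 ± 0.11. The 17 citric acid cycle genes had a median of -0.07. Aconitase, ACO1 (0.87), and the isocitrate dehydrogenase subunits IDH2 (0.78) and IDH1 (0.75) rose without keeping the call under control centring, and the succinyl-CoA ligase subunits LSC1 (-0.80) and LSC2 (-0.64) fell. Of 41 respiratory genes 15 fell (8 in the integrity model) and 6 rose (2 in that model). Those shares were 36.6% and 14.6%, against 32.1% and 34.9% of all genes. COX5B and CYC7, isoforms favoured at low oxygen, fell by 1.83 ± 0.13 and 1.44 ± 0.16, and the external NADH dehydrogenase NDE1 rose by 1.13 ± 0.10. Fatty acid oxidation had 15 of 22 genes lower (median -0.52), led by FAA1 (-1.68) and YAT2 (-1.50), and OAF1 (0.25), its activator, was the 1 rise, which changed sign with control centring and lost its call in the integrity model. PEX21, a peroxisomal import factor, rose by 1.27 ± 0.09 in a list of 24 with 6 higher and 9 lower (5 in the integrity model). The shares of that list were 25% and 37.5%, against 34.9% and 32.1% of all genes. Carnitine and carboxylate carriers had 12 of 20 lower, and mitochondrial import 14 of 33 higher and 10 lower (4 in the integrity model). The import shares were 42.4% and 30.3%, against 34.9% and 32.1% of all genes.

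Cell wall genes moved in both directions. NCA3, a member of the SUN family of wall proteins, read 8.33, 7.99 and 8.24 at day 2 and 11.39, 11.09 and 11.34 at day 10. It rose by 3.09 ± 0.11, or 8.5-fold (adjusted p = 1.88e-10), and its log phase mean was 6.09, close to background. Its relatives SUN4 and SIM1 fell by 1.48 ± 0.10 and 1.34 ± 0.14. PIR3 and PIR1, which are linked covalently to wall glucan, rose by 1.94 ± 0.11 and 1.18 ± 0.17. Of 9 genes of the PIR and SUN families 5 rose and 4 fell, or 3 and 5 with control centring. PST1 and the glucanase EXG1 rose by 1.73 ± 0.10 and 1.07 ± 0.08. SLT2, the MAP kinase of the cell wall integrity pathway, read 7.97, 7.90 and 8.05 at day 2 and 9.81, 9.91 and 9.97 at day 10, a rise of 1.92 ± 0.07 (adjusted p = 3.01e-10). FLO11, a flocculin of surface adhesion, rose by 1.18 ± 0.07. Of 20 TIR, DAN and related mannoprotein genes 8 fell (5 in the integrity model) and 5 rose, shares of 40% and 25% against 32.1% and 34.9% of all genes. TIP1, one of them, went from 11.07, 11.23 and 11.33 to 7.39, 7.78 and 7.28 and fell by 3.73 ± 0.11, and YGP1 fell by 1.06 ± 0.14. DSE2 fell by 2.09 ± 0.21, the chitinase gene CTS1 by 1.90 ± 0.30 and the glucanase gene SCW11 by 1.42 ± 0.10, all with products that act when daughter cells part from their mothers. CTS1 was uneven at day 10, at 8.03, 9.57 and 7.997, and without replicate 2 its difference was -2.42. Of 30 glucan and chitin genes 11 rose (36.7%) and 15 fell (50%), against 34.9% and 32.1% of all genes. Of 9 genes for p24 cargo receptors, which sort proteins for export, 7 fell (3 in the integrity model), led by ERP3 (-0.96) and EMP24 (-0.89).

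The predicted surface protein gene ANS1 had the highest measured difference of all. It read 5.45, 5.40 and 5.40 at day 2, not above background, and 10.21, 8.66 and 9.84 at day 10, and was at a mean of 5.96 on day 6. The day 10 level was at least 13.6-fold higher (adjusted p = 3.57e-08), with replicate 2 the lowest of the 3. YMR244W, which has no assigned function, read 6.49, 6.78 and 7.00 at day 2 and 10.67, 10.06 and 10.60 at day 10 and rose by 3.69 ± 0.15. YOR338W, also without one, rose by 2.37 ± 0.10.

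Most cyclins and G1/S regulators fell, and more of the meiosis genes rose than fell on the deposited scaling. Of 24 cyclins and G1/S regulators 16 fell and none rose (median -0.28), and in the integrity model 10 fell. The mitotic cyclin CLB1 fell by 1.44 ± 0.13 and the G1 cyclins CLN1 and CLN2 by 1.001 ± 0.11 and 0.89 ± 0.11. Replication genes were split, 17 of 54 higher and 19 lower (7 lower in the integrity model). Those shares, 31.5% and 35.2%, were near the 34.9% and 32.1% of all genes. RNR1, which makes deoxynucleotides, fell by 1.32 ± 0.13, the sliding clamp POL30 by 1.07 ± 0.12, and TAH11, which loads the helicase, rose by 1.13 ± 0.09. Of 10 histone genes 6 fell (3 in the integrity model), by at most the 0.59 of HTB2, and the shared probe set named HHF1 rose by 0.32 ± 0.06 but changed sign with control centring.

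Of 48 sporulation and meiosis genes 26 rose and 6 fell (2 in the integrity model), with a median of 0.20 that turned to -0.35 with control centring, and 8 lay below background on both days. IME1, the master regulator of meiosis, read 6.62, 6.66 and 6.94 at day 2 and 8.61, 8.75 and 8.59 at day 10. It rose by 1.91 ± 0.08 (adjusted p = 1.32e-09) and had the same level at day 6, 8.65. The spore wall genes SPS100 and OSW2 rose by 2.03 ± 0.16 and 1.81 ± 0.12, and MND1, a recombination gene, by 1.11 ± 0.09. Of the 8 genes taken as markers of sporulating cells, NDT80 (0.66) and IME2 (0.79) rose without keeping the call under control centring, and DIT1 (0.28) and SSP1 (0.42) rose but changed sign with it. SPS1 (-0.25) fell, and SPS4 ended below background, so its day 2 level was at least 1.06-fold higher (measured means 5.89 and 5.66). DIT1, SSP1, SPS1 and SPS4 lost the call in the integrity model. SPR3 (0.04) was not called, and SMK1 was below background on both days at 5.43 and 5.50.

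Most genes of the proteasome, the vacuolar proton pump and the vacuolar hydrolases fell, and autophagy genes were mixed. Of 34 proteasome genes 24 fell (median -0.29), of which the count in the integrity model was 7. PRE3, a catalytic subunit, had the lowest value of those named, -0.66. The vacuolar proton pump had 14 of 18 genes lower (median -0.37) and vacuolar hydrolases 9 of 12, led by APE3 (-1.68) and carboxypeptidase Y, PRC1 (-1.04). PRB1 (0.28) and ATG15 (0.30) rose but changed sign with control centring. Autophagy genes had 16 of 36 lower (8 in the integrity model) and 8 higher, and ATG19, a cargo receptor, fell by 0.99 ± 0.12.

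Regulators of growth and survival had members in both directions. Of 25 RAS, PKA and TOR genes 8 rose (5 in the integrity model) and 11 fell. Those shares were 32% and 44%, against 34.9% and 32.1% of all genes. The high-affinity cyclic AMP phosphodiesterase PDE2 read 7.48, 7.73 and 7.64 at day 2 and 9.27, 9.15 and 9.34 at day 10 and rose by 1.64 ± 0.08 (adjusted p = 4.56e-09). RAS2, which activates adenylate cyclase, went from 9.35, 9.61 and 9.66 to 8.10, 8.46 and 8.13 and fell by 1.31 ± 0.10, and the kinase subunit TPK2 fell by 0.96 ± 0.12. Of 26 quiescence, lifespan and silencing regulators 9 rose and 8 fell (5 in the integrity model), with a median of 0.04. Their shares, 34.6% and 30.8%, were near the 34.9% and 32.1% of all genes, and SLT2 was the 1 member beyond 1 unit. The stress factor MSN4 fell by 0.57 ± 0.09 and the kinase YAK1 by 0.46 ± 0.09. Genes of messenger RNA decay and P-bodies were even, with 8 of 26 higher and as many lower (2 and 5 in the integrity model). Either share was 30.8%, near those of all genes. The reference genes ACT1 (-0.28) and URA3 (-0.18) fell slightly, without keeping the call in the integrity model.

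**Figure D4:**
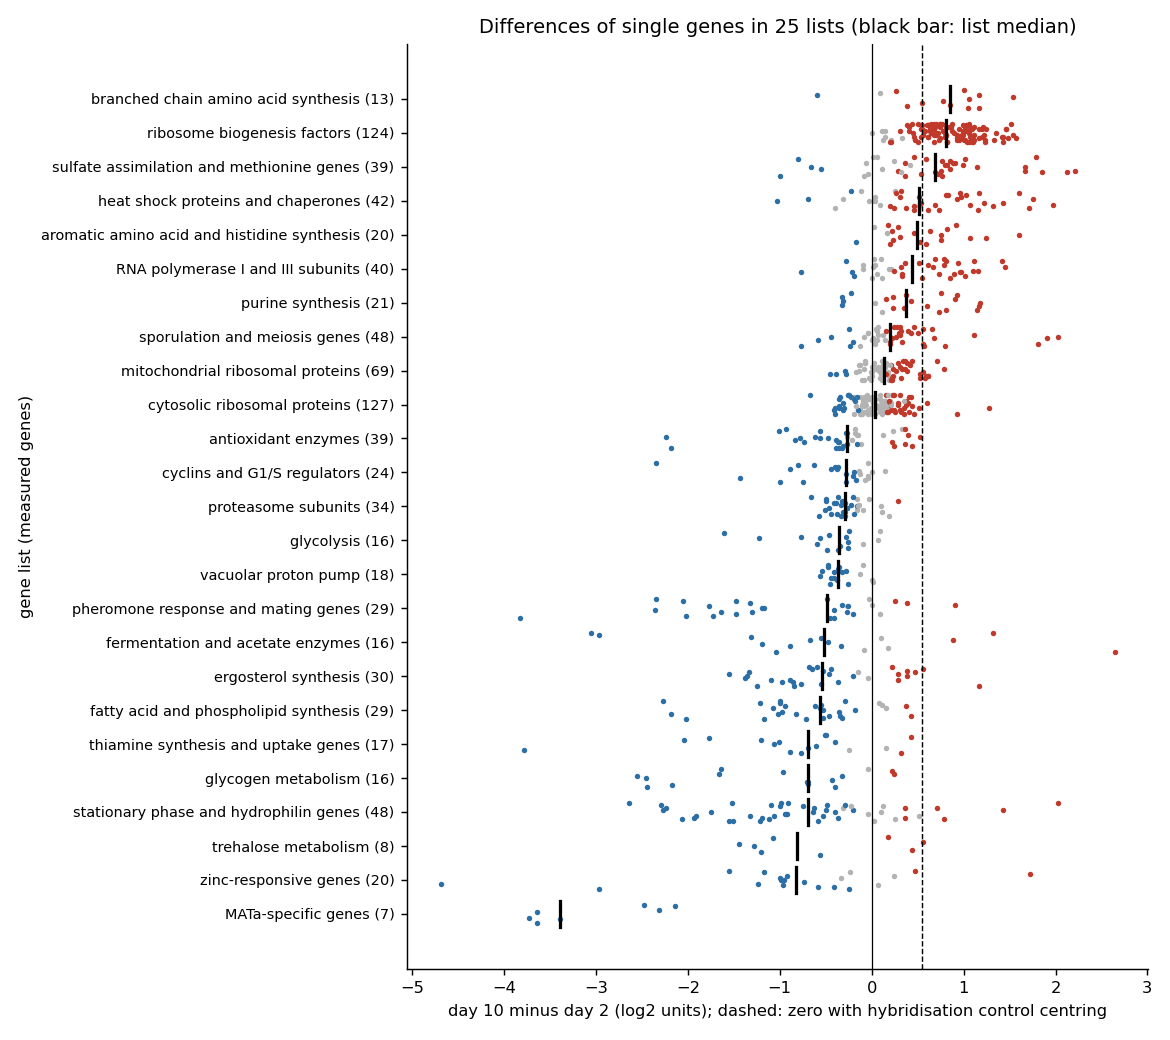
Differences between day 10 and day 2 (x axis, log2 units) of the measured genes of 25 lists (y axis), red where called higher, blue where called lower and grey where not called, with a black bar at each list's median. The MATa-specific genes lie at -3.73 to -2.14 and the ribosome biogenesis factors at 0.01 to 1.57. Points left of the dashed line at 0.548 are lower with centring on the hybridisation controls.

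Of the lists plotted, the branched chain, ribosome biogenesis and sulfate lists had medians above 0 in each of the 3 settings compared. The lists from the antioxidant enzymes down to the MATa-specific genes had medians below 0 in each of them.

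**Figure D5:**
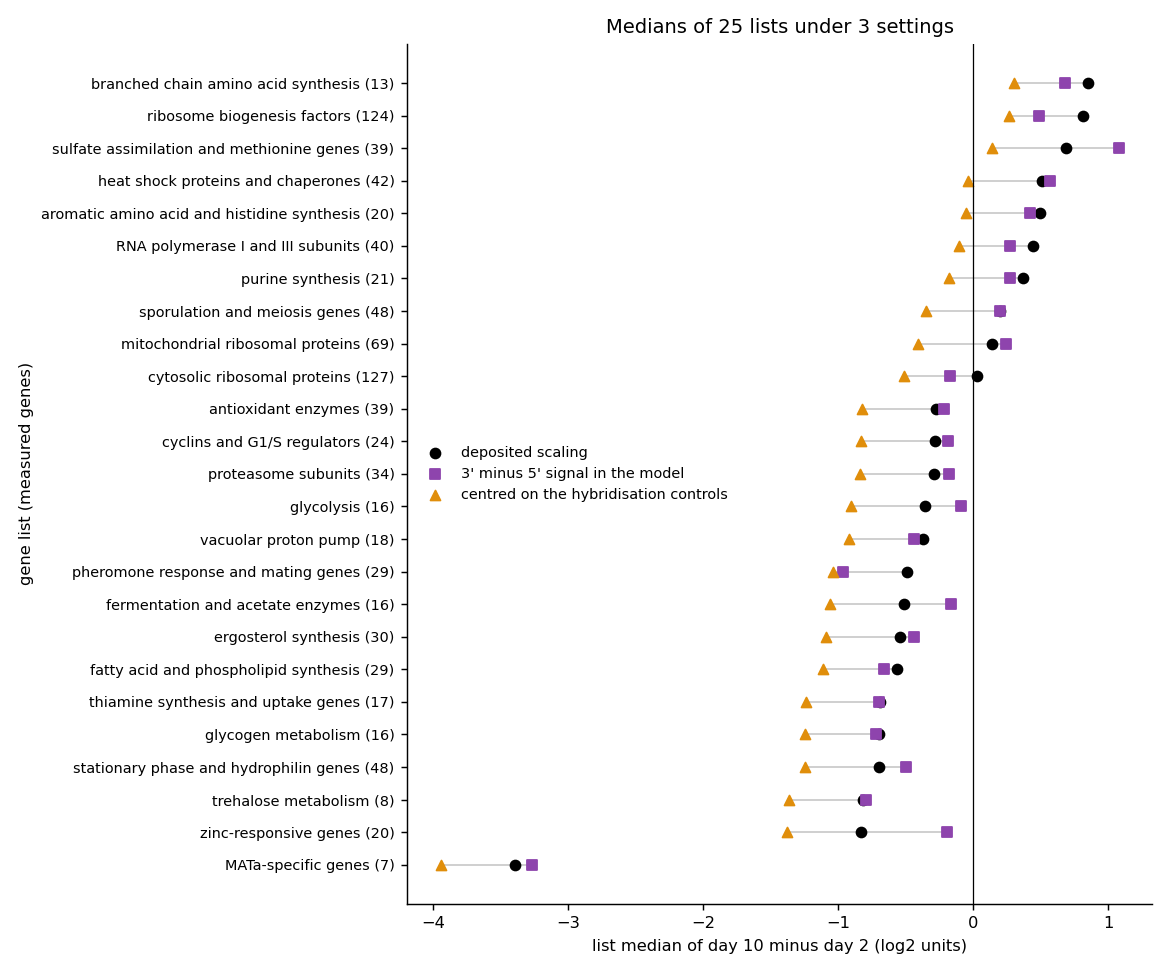
Median difference between day 10 and day 2 (x axis, log2 units) of the same 25 lists (y axis) with the deposited scaling (circles), in the integrity model (squares) and centred on the hybridisation controls (triangles). The triangle of the heat shock list lies at -0.04 against a circle at 0.51, and the square of the zinc list at -0.19 against -0.83.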

How the data were processed

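Total RNA from frozen cell pellets was labelled with biotin and hybridised to Affymetrix yeast arrays, per the labels' protocols. The authors deposited probe set values that were summarised with PLIER, per the submitters' processing notes, and their range of 5.11 to 13.79 was read as a log2 scale. Its version and any normalization step are not given in the sources here. The scale has a floor, so fold changes of dim genes are understated.

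Probe sets were named from the platform annotation, with 12 symbols updated, and 3470 probe sets had no gene in it. For 47 genes with several probe sets the brightest was kept. Probe sets that match several genes (118 in all) cannot tell close copies apart. Differences were tested with limma 3.58.1 in R 4.3.3 on all 12 arrays with 1 coefficient per time (8 residual degrees of freedom), and p-values were adjusted over 5449 genes. The procedure was tested on simulated data with 200 of 5449 genes changed, far fewer than were called here. It recovered 50% of the changes of 0.25 and 96% of those of 0.5, with 11 false calls. Background was the 95th percentile of 1746 probe sets of another yeast species, and a fold from a gene below it is a lower bound against that level. The 27 hybridisation controls (18 without bioB) gave the alternative centring.

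The genes and the 60 lists were chosen with earlier results of these data known. After values were seen, members that name patterns had wrongly caught (an RNase P subunit, MRP8) and NTH1 and YPS1 among vacuolar hydrolases were taken out. Named were the 15 highest and 15 lowest called genes without overlap, up to 6 called members per list, all mating type and hexose transporter genes, and the control genes ACT1, TDH1 and URA3. A further 42 genes outside this rule were chosen after their values were seen. Alternatives covered an offset of 16, other scalings, a filter on dim genes, other choices of probe set, the prior, array weights, the 6 arrays alone, the replicate block, the 3' minus 5' signal (the integrity model) and each array left out.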

Additional observations from a re-analysis of the deposited data

Results flagged for a closer look

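Probe sets with no gene in the annotation were not part of the comparisons. Of 3470 such probe sets, 351 had a mean over the 6 arrays above the background set by another yeast species. Of these 351, 125 were called between day 10 and day 2 with limma, 59 higher and 66 lower, and 17 differed by at least 1 unit on the log2 scale. They are unnamed here.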

How the results depend on the processing

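Differences of named genes kept their sign except where given here, and the settings compared were those planned. The number of called genes was 3654 as reported and lay between 3332 and 3719 when 1 of the 6 arrays was left out, with 1687 to 1894 higher and 1545 to 1825 lower. Centring on the hybridisation controls gave 271 higher and 3685 lower, and 240 and 3836 without bioB. With the 3' minus 5' signal in the model 2425 genes were called, of which 1128 were lower. A minimum difference of 1 unit left 430 genes, 204 higher and 226 lower. With the 6 arrays of the comparison alone 3315 genes were called. Of the 249 named genes, 8 lost the call in that setting and 4 with quantile normalization. The labels do not say whether a replicate number marks a shared culture. Same-numbered deviations correlated at 0.25, -0.0553 and -0.0687, and with the replicate block 3624 genes were called. Deposited intensities have no depth, so the number of arrays and the brightness over background limit the precision.

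Of the 249 named genes, the sign changed with control centring, and again without bioB, for ATG15 (-0.25, -0.30), DIT1 (-0.27, -0.32), EKI1 (-0.12, -0.16), GAL2 (-0.43, -0.48), GLG2 (-0.33, -0.37), GPA2 (-0.059, -0.11), HFA1 (-0.18, -0.23), HHF1 (-0.23, -0.28), HXT10 (-0.33, -0.38), HXT11 (-0.38, -0.42), HXT14 (-0.45, -0.50), HXT15 (-0.52, -0.57), HXT2 (-0.0076, -0.054), HXT9 (-0.52, -0.56), MF(ALPHA)2 (-0.40, -0.45), NRG1 (-0.0097, -0.057), NTH1 (-0.11, -0.16), NTH2 (-0.38, -0.42), OAF1 (-0.30, -0.34), PDC2 (-0.22, -0.27), PIG1 (-0.30, -0.35), PRB1 (-0.27, -0.32), PRM5 (-0.30, -0.34), RGT2 (-0.36, -0.41), SIP4 (-0.29, -0.34), SMK1 (-0.47, -0.52), SPR3 (-0.51, -0.56), SSP1 (-0.12, -0.17), STE11 (-0.16, -0.21), STE3 (-0.44, -0.49), THI2 (-0.12, -0.16) and ZRC1 (-0.077, -0.12). Without bioB only, it changed for FPS1 (-0.015), GPD2 (-0.0047) and MAL11 (-0.032). With the 3' minus 5' signal in the model it changed for MET3 (0.52) and SAM2 (0.15), and 20 further genes lost the call, namely ACT1, ARG4, DIT1, DPP1, GLG2, HFA1, HXT10, MAL11, MGE1, NTH1, OAF1, PDX3, RGT2, SAM3, SIP4, SNO1, SPS1, SPS4, SSP1 and URA3. Leaving out 1 array ended the call of GLG2 (0.17 without day 2 replicate 2, 0.16 without day 10 replicate 2), HXT2 (0.36 without day 2 replicate 1, 0.42 without day 10 replicate 1, 0.40 without day 10 replicate 3), MAL11 (0.39 without day 2 replicate 2), MET3 (-0.51 without day 2 replicate 2, -0.39 without day 2 replicate 3, -0.56 without day 10 replicate 1, -0.55 without day 10 replicate 3), MGE1 (-0.20 without day 2 replicate 1, -0.17 without day 2 replicate 2, -0.18 without day 10 replicate 2, -0.23 without day 10 replicate 3), NTH2 (0.13 without day 2 replicate 1, 0.17 without day 2 replicate 2, 0.18 without day 10 replicate 1, 0.13 without day 10 replicate 2), RGT2 (0.16 without day 2 replicate 1, 0.17 without day 2 replicate 2, 0.17 without day 10 replicate 1, 0.14 without day 10 replicate 3), SAM2 (-0.47 without day 2 replicate 2, -0.41 without day 2 replicate 3, -0.48 without day 10 replicate 1, -0.48 without day 10 replicate 3), SIP4 (0.20 without day 2 replicate 2, 0.25 without day 2 replicate 3, 0.15 without day 10 replicate 2), SPS1 (-0.18 without day 2 replicate 2) and URA3 (-0.19 without day 2 replicate 2, -0.14 without day 2 replicate 3, -0.11 without day 10 replicate 2, -0.18 without day 10 replicate 3). The cause was not tested.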
